A study of Mus musculus with 12 samples.

Results

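The 7 genes described here encode the core of MHC class II antigen presentation and were taken by symbol: the peptide-binding chains H2-Aa, H2-Ab1 and H2-Eb1, the invariant chain Cd74, the peptide-loading chains H2-DMa and H2-DMb1, and the class II transactivator Ciita. All 7 could be joined across the 2 annotations of the count files, which have 27574 genes in common, and all 7 passed the filter on low counts, as 13943 genes did. They were followed in 12 bulk RNA sequencing libraries from the meninges (the membranes around the brain) of male C57BL/6J mice, labelled as monocytes and obtained with a magnetic isolation kit, with 3 libraries in each of 4 groups. The psilocybin, MDMA and vehicle groups all went through 18 days of restraint stress, received their drug or vehicle, and were sampled 24 hours later. The fourth group was not stressed. The sources used here give neither doses nor ages and do not say whether the unstressed mice were injected. Whether each library is a different animal is not stated, and the p-values cover only the spread among these libraries, which may be technical.

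In GENCODE vM21 (GRCm38), 5 of the genes lie in the MHC region of chromosome 17: H2-DMa (chr17:34119541-34139101, plus strand), H2-DMb1 (chr17:34153072-34160230, plus), H2-Ab1 (chr17:34257689-34269419, plus), H2-Aa (chr17:34282744-34287823, minus) and H2-Eb1 (chr17:34305867-34316674, plus). Ciita lies on chromosome 16 (chr16:10480059-10528418, plus) and Cd74 on chromosome 18 (chr18:60803848-60812652, plus).

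Class II molecules are pairs of an alpha and a beta chain that display peptides from swallowed or self proteins to CD4+ T cells. Cd74 blocks the peptide groove during assembly, and the H2-DM pair removes its last fragment so that peptides can bind. Monocytes, border macrophages, dendritic cells and B cells can all carry class II, and Ciita, which does not bind DNA itself, switches the genes on together with the factors that sit on the X and Y boxes of their promoters.

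These promoter boxes are shown because all the members except Ciita are its known targets. Promoter sequences (RefSeq, build GRCm38.p6, 250 bases before to 50 after the gene start) were matched for 4 of the 7 members: H2-Aa, H2-Eb1, H2-DMb1 and H2-DMa, the last with 2 windows. Capitals mark matches, on either strand, to TGATTGG, the core of the Y box that the NF-Y factor binds, and to AACTGATGATGCT, the longest run that H2-Eb1 and H2-DMb1 share in the 50 bases before their Y box core, where the X box of the RFX and CREB factors lies. The second motif was taken from those promoters themselves, so that their matching it is no finding, and the motifs do not overlap.
H2-Aa, chr17:34287774-34288073, minus strand: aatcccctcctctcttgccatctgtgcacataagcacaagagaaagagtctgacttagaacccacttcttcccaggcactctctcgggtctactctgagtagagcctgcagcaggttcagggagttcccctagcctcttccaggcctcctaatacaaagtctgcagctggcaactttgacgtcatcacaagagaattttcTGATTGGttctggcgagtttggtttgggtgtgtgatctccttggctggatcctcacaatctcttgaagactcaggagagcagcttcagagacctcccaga
H2-Eb1, chr17:34305617-34305916, plus strand: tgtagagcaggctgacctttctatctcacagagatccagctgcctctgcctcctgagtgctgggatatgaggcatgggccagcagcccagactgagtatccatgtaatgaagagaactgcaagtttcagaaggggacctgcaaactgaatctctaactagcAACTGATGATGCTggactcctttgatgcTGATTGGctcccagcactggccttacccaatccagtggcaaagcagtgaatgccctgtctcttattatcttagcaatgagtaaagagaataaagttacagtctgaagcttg
H2-DMb1, chr17:34152941-34153240, plus strand: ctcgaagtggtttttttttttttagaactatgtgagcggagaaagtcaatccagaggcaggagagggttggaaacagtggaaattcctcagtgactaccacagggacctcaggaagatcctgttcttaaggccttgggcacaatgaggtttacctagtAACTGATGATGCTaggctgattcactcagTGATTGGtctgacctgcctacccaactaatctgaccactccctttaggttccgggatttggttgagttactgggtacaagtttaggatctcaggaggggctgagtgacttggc

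The Y box core began at position -50 in H2-Aa, -61 in H2-Eb1 and -63 in H2-DMb1, counted from the first base of the gene as 0. The shared run ended 15 bases before it in H2-Eb1 and 16 bases before it in H2-DMb1, and these letters were not in the H2-Aa window. Neither motif was in the H2-DMa windows. Among 32851 promoter windows of the same length, 7.82% held the Y box core, 0.00913% the shared run, and 2 held both, those of H2-Eb1 and H2-DMb1. A match is a description of the letters and not evidence of binding.

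The libraries held 807725 to 5136953 gene counts, with the smallest total in vehicle library 2. Of the joined genes, 16860 to 17727 had a count in psilocybin libraries, 15336 to 17919 in MDMA, 9520 to 13458 in vehicle and 14317 to 17511 in unstressed libraries. The label was set beside markers: choroid plexus genes summed to 12469 to 126180 CPM (counts scaled to a library total of 1000000) over the 12 libraries, and classical monocyte genes to 51.6 to 1120 CPM. Beside this, vehicle library 1 had no count of Ly6c2 and 1 count of Ccr2, genes that mark monocytes. The unstressed libraries were counted with another annotation (RefSeq) than the stressed libraries (Ensembl identifiers), and none of the 7 members had nearly the same exons in both. In bulk libraries, fewer cells of a type and less RNA per cell cannot be told apart.

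The transcripts of the peptide-binding chains were present in every library, and the groups overlapped for most of them. H2-Ab1, the beta chain of the I-A molecule, stood at 114, 55.3 and 240 CPM in psilocybin libraries 1, 2 and 3. It stood at 276, 163 and 198 CPM in MDMA libraries, at 238, 203 and 242 CPM in vehicle libraries, and at 125, 202 and 285 CPM in unstressed libraries. Psilocybin libraries 1 and 2 were lower than any vehicle library, while library 3 lay within the vehicle range, so these groups overlapped. H2-Aa, the alpha chain that pairs with it, stood at 61.0, 30.0 and 140 CPM in psilocybin, 151, 68.2 and 131 CPM in MDMA, 126, 129 and 39.4 CPM in vehicle, and 49.5, 90.6 and 121 CPM in unstressed libraries. Vehicle library 3 was the low one here although its H2-Ab1 level was the highest of the vehicle group. In counts, H2-Aa was 0.163 times H2-Ab1 in that library (exact 95% interval 0.127 to 0.208), against 0.418 to 0.659 times in the other 8 stressed libraries. H2-Eb1, the beta chain of the I-E molecule, stood at 44.7, 23.1 and 84.6 CPM in psilocybin, 108, 62.6 and 65.2 CPM in MDMA, 58.8, 30.95 and 36.3 CPM in vehicle, and 15.9, 37.4 and 24.6 CPM in unstressed libraries. In CPM of the library total, every MDMA library was above every vehicle and every unstressed library for this gene, but with scaled library sizes the MDMA and vehicle groups overlapped. C57BL/6 mice lack a working gene for the I-E alpha chain, and that gene (H2-Ea-ps) had 0 counts in all 12 libraries, which allows up to 0.584 to 3.71 CPM depending on the library.

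**Figure D1:**
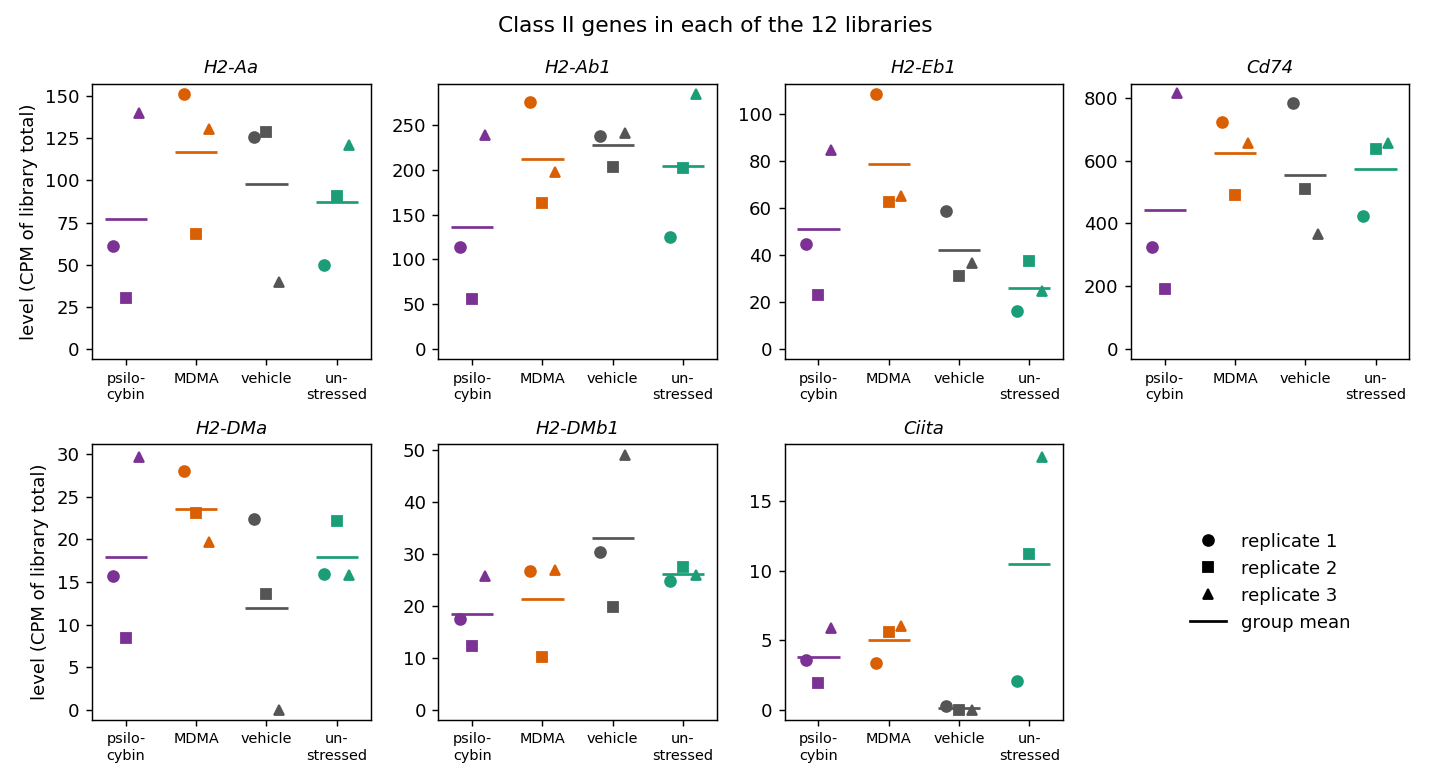
Levels of the 7 class II genes in each library in CPM of the library total (vertical axes, linear), by group from psilocybin to unstressed, with one symbol per replicate number and a line at the group mean. Ciita stood at 0, 0 and 0.276 CPM in the vehicle libraries and between 1.92 and 18.2 CPM in the other libraries, while no other gene is near 0 in all vehicle libraries.

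Cd74, the invariant chain, had the most counts of the 7 genes in every library. Its level was 325, 192 and 815 CPM in psilocybin, 722, 492 and 656 CPM in MDMA, 785, 509 and 366 CPM in vehicle, and 424, 637 and 657 CPM in unstressed libraries. The psilocybin group held both the lowest and the highest of the 12 values, and all groups overlapped. The group means were 444 ± 328 CPM in psilocybin, 623 ± 119 CPM in MDMA, 554 ± 213 CPM in vehicle and 572 ± 129 CPM in unstressed libraries (SD, n = 3 each).

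The peptide-loading pair was lower in level and less even. H2-DMa stood at 15.7, 8.46 and 29.7 CPM in psilocybin, 28.0, 23.1 and 19.7 CPM in MDMA, 22.4, 13.6 and 0 CPM in vehicle, and 15.9, 22.2 and 15.8 CPM in unstressed libraries. H2-DMb1 stood at 17.5, 12.3 and 25.7 CPM in psilocybin, 26.6, 10.1 and 26.9 CPM in MDMA, 30.4, 19.8 and 49.1 CPM in vehicle, and 24.8, 27.4 and 26.0 CPM in unstressed libraries. Vehicle library 3 thus held the highest H2-DMb1 level of all and no count of its partner. With 0 H2-DMa counts beside 96 of H2-DMb1, the upper exact 95% limit of their ratio was 0.0392, against ratios of 0.607 to 2.28 in the other 11 libraries. H2-DMb1 has a close copy, H2-DMb2, and reads shared by the pair may have been split or dropped in counting, so both are uncertain. H2-DMb2 had 21 counts in psilocybin, 71 in MDMA, 7 in vehicle and 43 in unstressed libraries.

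Ciita, which controls transcription of the other genes, was the member whose vehicle libraries overlapped with no other group. It had 12, 5 and 24 counts in psilocybin libraries 1, 2 and 3, and 12, 16 and 31 counts in MDMA libraries. It had 1, 0 and 0 counts in vehicle libraries and 6, 45 and 82 counts in unstressed libraries. Every library of the other groups was above all vehicle libraries, and the unstressed group spread from 2.03 to 18.2 CPM. From pooled counts per scaled library size, Ciita was 0.0156 times the unstressed level in vehicle libraries (exact 95% counting interval 0.000391 to 0.0883). It also fell in the test (log2 difference -5.75 ± 1.42 SE, edgeR quasi-likelihood adjusted p = 0.0450, lower in 3 of 3 libraries), and since the vehicle group held 1 count, the fitted size depends on the prior count. Leaving out 1 library moved the log2 difference between -8.11 (without vehicle library 1) and -5.005 (without unstressed library 3). The call did not hold with DESeq2's size factors (adjusted p = 0.0531), without vehicle library 1 (0.0787) or 3 (0.0539), or without unstressed library 1, 2 or 3 (0.0771, 0.0888 and 0.114), and the adjusted p ran from 0.00392 to 0.153 over 11 alternatives. Against vehicle, Ciita was 22.6 times higher in psilocybin libraries (interval 3.84 to 916, adjusted p = 0.149) and 26.9 times higher in MDMA libraries (interval 4.64 to 1078.5, adjusted p = 0.105), neither past the threshold with edgeR. DESeq2 called the MDMA comparison (adjusted p = 0.0347), as did edgeR without vehicle library 2 (0.0427), with adjusted p from 0.0347 to 0.647 over 13 alternatives.

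The low Ciita counts came from libraries that still held class II transcripts. Relative to 1000 counts of the 7 members in the same library, which does not depend on scaling between libraries, Ciita gave 6.11, 5.95 and 4.39 in psilocybin, 2.56, 6.79 and 5.47 in MDMA, 0.219, 0 and 0 in vehicle, and 3.09, 10.9 and 15.9 in unstressed libraries. The exact 95% interval reached 1.22 in vehicle library 1, 5.03 in library 2 and 2.57 in library 3. The interval of vehicle library 2 overlapped those of all psilocybin and MDMA libraries. That of vehicle library 3 overlapped those of psilocybin library 2 and MDMA library 1. The interval of unstressed library 1 (1.14 to 6.72) overlapped those of all 3 vehicle libraries. Counts were also scarce in vehicle libraries for other genes of this abundance. Of 3911 genes that averaged 5 to 20 CPM in unstressed libraries, as Ciita did, 0.946% had at most 1 count over the 3 psilocybin libraries and 0.92% over the 3 MDMA libraries, against 14.7% over the 3 vehicle libraries. The part of this in the Ciita result was not tested. GENCODE vM21 gives Ciita 9206 exonic bases that no other gene shares, against 7393 in RefSeq, and the release with which the stressed libraries were counted is not stated.

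**Figure D2:**
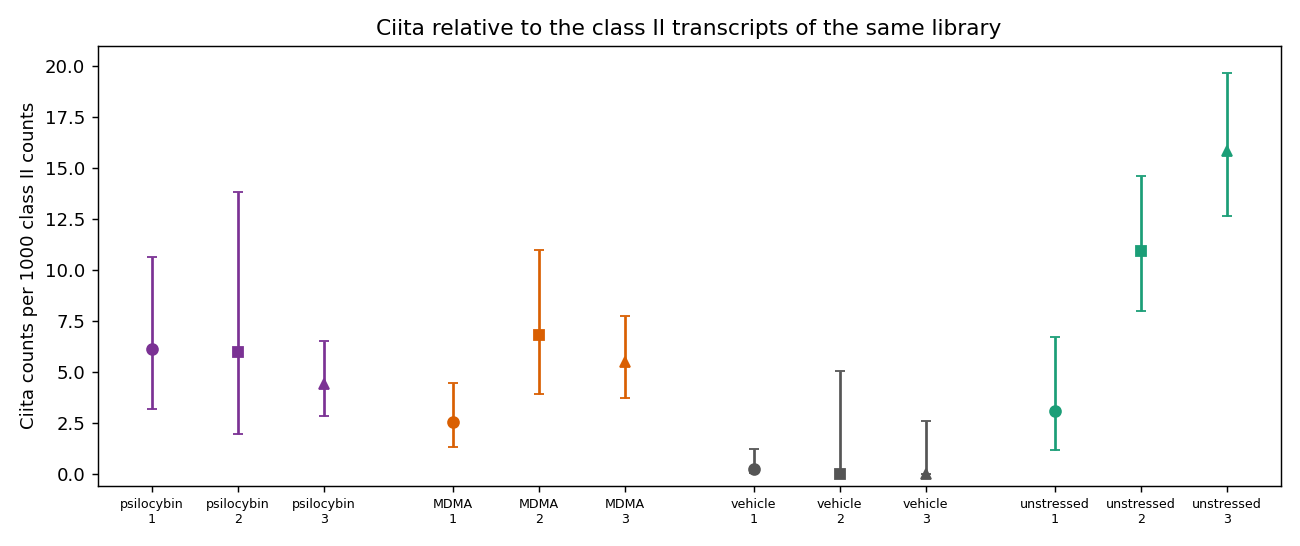
Ciita counts per 1000 counts of the 7 class II genes in each library (vertical axis), by group and replicate, with exact 95% binomial intervals that cover counting error only. The 3 vehicle libraries sit between 0 and 0.219 and the other 9 between 2.56 and 15.9, while the interval of vehicle library 2 reaches 5.03.

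Over all genes, stressed vehicle mice were compared with unstressed mice to ask what restraint did. Of the 7 members 1 passed the test, Ciita as lower, where 3.41% of 13943 genes passed in either direction and 3.19% as lower. DESeq2 also called 1 member there, Ciita, and 12.9% of all genes. The other 6 had log2 differences between -0.51 ± 1.12 SE (H2-DMa) and 0.91 ± 0.69 SE (H2-Eb1), with edgeR adjusted p-values from 0.534 to 0.933, and at an unadjusted p under 0.05 Ciita was the 1 member, against 18.5% of all genes. For Cd74 the difference was 0.11 ± 0.48 SE, for H2-Aa 0.25 ± 0.64, for H2-Ab1 0.37 ± 0.54 and for H2-DMb1 0.64 ± 0.78. The median over the 7 members was 0.25, while over all genes it was -0.18 with edgeR's scaling and 0.00215 with DESeq2's size factors. On scaled levels the groups did not overlap for 1 of the 7, Ciita, and for 20.8% of all genes.

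The drug groups were compared with vehicle to ask how each drug acted after stress. No member passed after psilocybin, where 0.0143% of all genes did, and none after MDMA, where 0.674% did. At an unadjusted p under 0.05 by edgeR, 1 member (Ciita) was found in each comparison, against 16% of all genes for psilocybin and 16.7% for MDMA. DESeq2 called no member for psilocybin, where it called 7.8% of all genes, and 1 for MDMA, where it called 9.85%. After psilocybin the log2 differences were -0.96 ± 0.54 SE for H2-Ab1, -0.49 ± 0.48 for Cd74, -0.44 ± 0.64 for H2-Aa and 0.06 ± 0.68 for H2-Eb1, the last turning to -0.14 with DESeq2's size factors. H2-DMb1 had -1.13 ± 0.79 and H2-DMa 0.52 ± 1.12. After MDMA they were -0.37 ± 0.54 SE for H2-Ab1, -0.05 ± 0.48 for Cd74, 0.09 ± 0.64 for H2-Aa and 0.64 ± 0.68 for H2-Eb1, with H2-Aa turning to -0.04 under DESeq2's size factors. H2-DMb1 had -1.02 ± 0.79 and H2-DMa 0.87 ± 1.12. The medians over the 7 were -0.44 for psilocybin and 0.09 for MDMA, beside medians of all genes of 0.31 and 0.24 (0.118 and 0.0995 with DESeq2's size factors). Both comparisons share the vehicle libraries. Groups did not overlap for 1 of 7 members in each (Ciita), against 23.8% of all genes for psilocybin and 18.9% for MDMA.

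**Figure D3:**
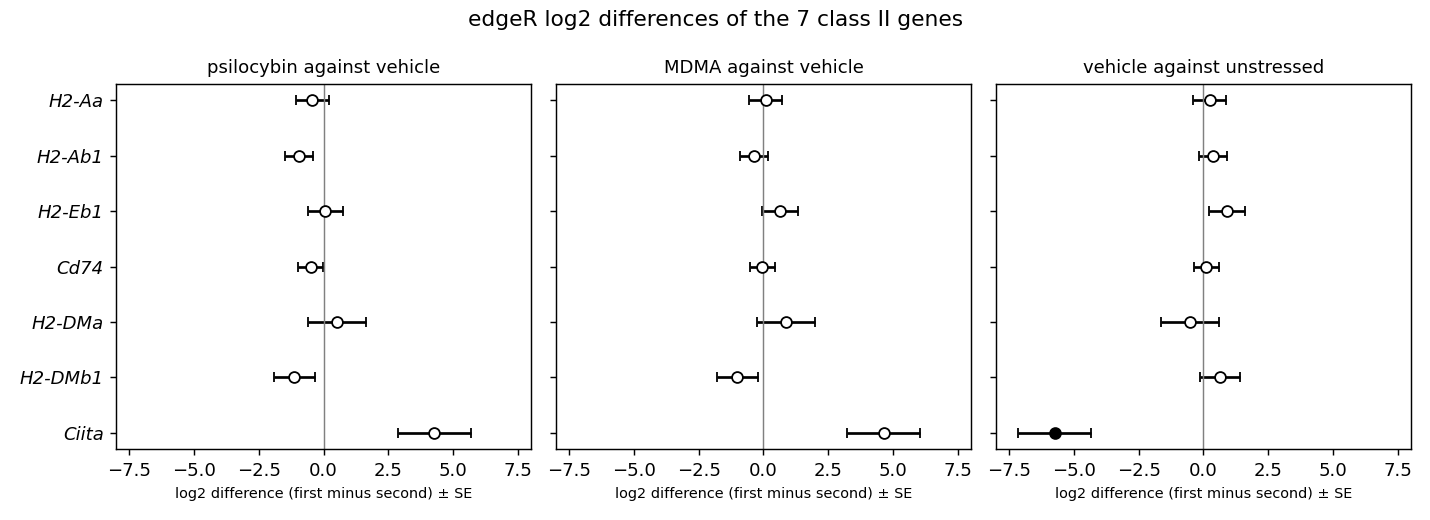
Log2 differences (horizontal axes, first group minus second, with standard errors) of the 7 class II genes in the psilocybin, MDMA and vehicle comparisons. The filled point passed the edgeR test, Ciita at -5.75 in vehicle against unstressed libraries, and open points did not.

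Between the drugs and against unstressed mice no member passed either. In psilocybin against MDMA all 7 log2 differences were negative, from -0.59 ± 0.54 SE (H2-Ab1) to -0.11 ± 0.78 (H2-DMb1, which was 0.0935 without psilocybin library 2), each with an edgeR adjusted p of 1. None of all the genes passed there by edgeR, while 0.588% had an unadjusted p under 0.05, none of them a member. DESeq2 called 0 genes in this comparison, and groups did not overlap for 0 of 7 members and 16.6% of all genes. Psilocybin library 3 held the highest Cd74 level of the 6 libraries. Against unstressed mice, 0.0861% of genes passed for psilocybin and 0.122% for MDMA by edgeR, and DESeq2 called no member in either, with 1.81% of genes called for psilocybin and 1.61% for MDMA. At an unadjusted p under 0.05 these were 6.34% and 4.98% of genes, with 0 members for psilocybin and 1 for MDMA, H2-Eb1. H2-Eb1 was 1.55 ± 0.69 SE on the log2 scale for MDMA against unstressed (unadjusted p = 0.0418 by edgeR, adjusted p = 0.945, higher in 3 of 3 libraries) and 0.97 ± 0.68 for psilocybin (adjusted p = 0.967). The annotations give H2-Eb1 1944 exonic bases for the drug groups and 1669 for the unstressed group. Ciita was -1.11 ± 1.02 for MDMA and -1.47 ± 1.03 for psilocybin against unstressed, with overlapping groups. On scaled levels the groups did not overlap for H2-DMb1 in either comparison (-0.38 ± 0.78 for MDMA and -0.49 ± 0.78 for psilocybin) and for H2-Eb1 with MDMA. That is 2 of 7 members with MDMA and 1 with psilocybin, against 22.4% of all genes with MDMA and 37% with psilocybin. For H2-DMb1 the highest scaled level was 24.885 CPM in psilocybin and 24.749 CPM in MDMA, against a lowest of 24.9 CPM in unstressed libraries. In CPM of the library total these groups overlapped for H2-DMb1. A joint test of any difference among the 4 groups passed for 0.581% of all genes and for no member. Among the members Ciita had the smallest edgeR adjusted p of this joint test, 0.189, with 1 member (Ciita) under an unadjusted p of 0.05, as were 14.3% of all genes. DESeq2's likelihood ratio test called 1 member and 10.5% of all genes.

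Per kilobase of exon, Cd74 led in all 4 groups and Ciita came last. Cd74 averaged 264 ± 195 CPM per kilobase in psilocybin, 371 ± 70.7 in MDMA, 330 ± 127 in vehicle and 405 ± 91.2 in unstressed libraries (SD, n = 3 each), and H2-Ab1 came second with 53.1 ± 36.6 in psilocybin, 82.8 ± 22.6 in MDMA, 88.6 ± 8.3 in vehicle and 171 ± 67.0 in unstressed libraries. Cd74 and H2-Ab1 did not overlap in any group. The order of the next genes differed: H2-Eb1 stood above H2-Aa in psilocybin and MDMA libraries, and H2-Aa above H2-Eb1 in vehicle and unstressed libraries. H2-Eb1 and H2-Aa were next to each other and overlapped in the stressed groups. The annotation gives H2-Aa 3798 exonic bases in stressed and 1069 in unstressed libraries, so its level per kilobase (20.3 ± 14.9, 30.7 ± 11.4 and 25.8 ± 13.3 in psilocybin, MDMA and vehicle, against 81.5 ± 33.7 in unstressed libraries) cannot be compared between them. The same holds for H2-Ab1, with 2568 bases against 1193. In CPM without length it averaged 228 ± 21.3 in vehicle and 204 ± 79.9 in unstressed libraries. H2-DMa, with 3448 bases against 6798, has the opposite imbalance.

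Within the class II counts the make-up was similar in most libraries. Cd74 made up 58.7 ± 2.5% of the counts of the 7 genes in psilocybin, 58.0 ± 2.7% in MDMA, 56.2 ± 6.1% in vehicle and 61.2 ± 3.7% in unstressed libraries (SD, n = 3 each). H2-Ab1 made up 18.2 ± 1.3% in psilocybin, 19.6 ± 1.5% in MDMA, 24.8 ± 7.3% in vehicle and 21.2 ± 3.2% in unstressed libraries. The wide vehicle spread came with library 3, where H2-Ab1 reached 32.96% (exact 95% interval 30.5 to 35.5) and Cd74 held 716 of 1432 counts. H2-Eb1 held 7.04 ± 0.69% in psilocybin and 7.24 ± 1.19% in MDMA, above each vehicle library (4.35 ± 0.82%) and each unstressed library (2.74 ± 0.80%). These shares were not tested.

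**Figure D4:**
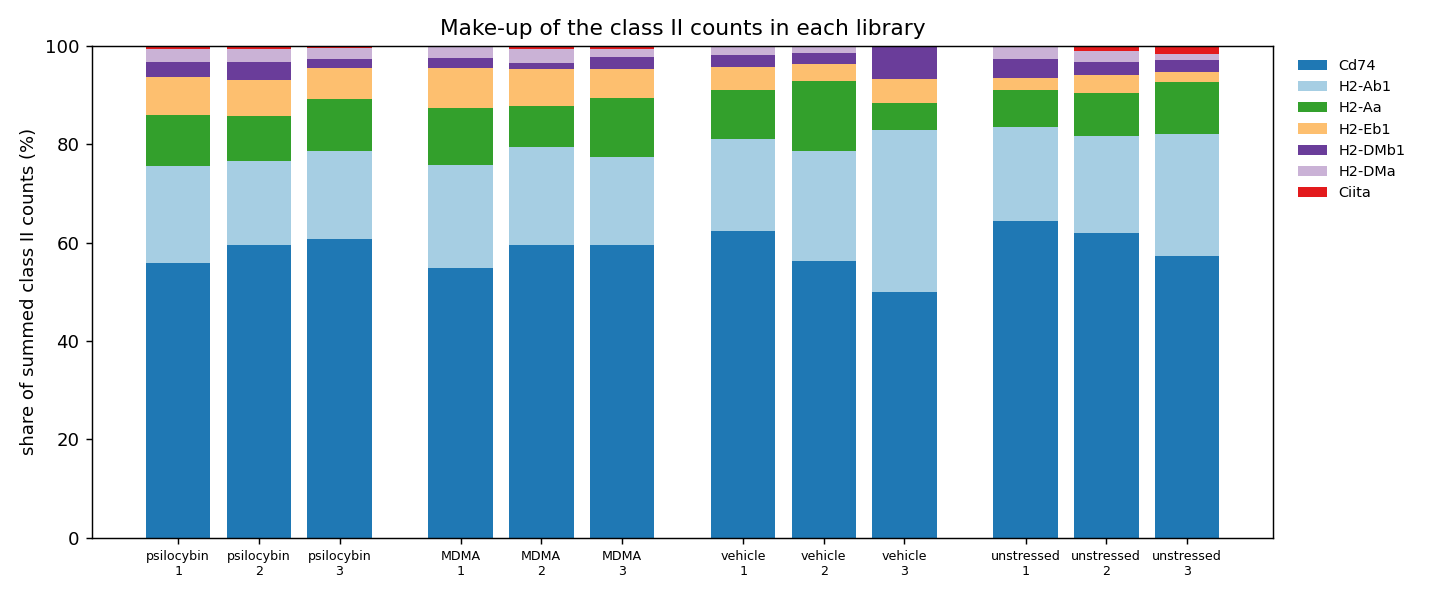
Share of the summed counts of the 7 class II genes held by each gene (vertical axis, percent), 1 bar per library, by group. Cd74 is the largest part of every bar, smallest in vehicle library 3 with 716 of 1432 counts, and the Ciita segment at the top is visible mainly in unstressed libraries 2 and 3.

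The other class II genes were scarce. H2-Ob, which with H2-Oa forms the inhibitor of H2-DM in B cells, had 3, 1 and 22 counts in psilocybin, 12, 2 and 37 in MDMA, 0 in each vehicle library, and 59, 11 and 3 in unstressed libraries. Unstressed library 1 held 59 of the 73 unstressed counts, and H2-Ob did not pass the test of vehicle against unstressed libraries (edgeR adjusted p = 0.0956). H2-Oa had 8 counts in psilocybin, 7 in MDMA, 0 in vehicle and 5 in unstressed libraries, and H2-Eb2 had 2 in psilocybin, 2 in MDMA and 0 in vehicle and unstressed libraries. Of these 5 genes 2 were tested, H2-Ob and H2-DMb2, and none passed in any comparison.

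Among 7 genes of the factors on the X and Y boxes (Rfx5, Rfxank, Rfxap, Nfya, Nfyb, Nfyc and Creb1), none passed in any of the 6 comparisons. Several were missing from vehicle libraries 1 and 3. These libraries had a count for 10340 and 9520 of all joined genes, against 14317 to 17919 in the drug and unstressed libraries. Nfyc and Rfxank had 195 and 60 counts in vehicle library 1, but 2 and 0 in vehicle library 3. Rfx5, the DNA-binding subunit of RFX, had 50, 70 and 85 counts in psilocybin, 54, 92 and 163 in MDMA, 0, 16 and 0 in vehicle, and at least 108 in each unstressed library. Nfyb, a subunit of NF-Y, had 0, 62 and 0 counts in vehicle libraries and at least 104 in every other library, whereas Nfya had 104, 30 and 154 in vehicle libraries. Of 8 genes of the interferon gamma pathway, which induces Ciita, 7 were tested and 1 passed, in vehicle against unstressed libraries. In that comparison 3.41% of all genes passed, and 3.19% as lower. Jak2, a kinase of the interferon gamma receptor, had 100, 37 and 145 counts in psilocybin, 125, 113 and 203 in MDMA, 0, 0 and 12 in vehicle, and 253, 420 and 417 in unstressed libraries. It fell in vehicle against unstressed libraries (log2 difference -5.02 ± 1.30 SE, edgeR adjusted p = 0.0491), with 5030 exonic bases against 10846. The call did not hold with DESeq2's size factors (adjusted p = 0.0654), without vehicle library 1 (0.0517), or without unstressed library 1, 2 or 3 (0.0985, 0.106 and 0.113), with adjusted p from 0.000222 to 0.473 over 12 alternatives. Ifng itself had 0 to 7 counts per library. None of the 6 antigen-processing genes (Ctss, Ctsl, Ctsb, Ctsd, Lgmn and Ifi30) and none of the 5 measured genes of class II turnover and costimulation (March1, March8, Cd80, Cd86 and Cd40) passed in any comparison. Ifi30, the lysosomal thiol reductase, had 0, 2 and 1 counts in vehicle libraries and 3 to 38 elsewhere.

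Levels of the markers of other cells that carry class II stand beside these values. The 7 genes summed to 748 ± 528 CPM in psilocybin, 1081 ± 247 CPM in MDMA, 966 ± 269 CPM in vehicle and 944 ± 256 CPM in unstressed libraries (SD, n = 3 each). B cell markers (9 genes) summed to 111 to 293 CPM in psilocybin, 194 to 254 CPM in MDMA, 130 to 341 CPM in vehicle and 451 to 585 CPM in unstressed libraries, most of it from Ebf1. Without Ebf1 the sums were 15.1 to 92.2 CPM in psilocybin, 6.99 to 81.0 CPM in MDMA, 0 to 24.8 CPM in vehicle and 17.3 to 115 CPM in unstressed libraries. Cd22, Pax5 and Fcrla were at 0 in all vehicle libraries, but Cd22 and Pax5 were also at 0 in MDMA library 2 and unstressed library 3. Dendritic cell markers (8 genes) summed to 51.9 to 116 CPM in psilocybin, 79.7 to 127 CPM in MDMA, 0.552 to 117 CPM in vehicle and 113 to 293 CPM in unstressed libraries, with Itgax, Xcr1 and Clec9a at 0 in all vehicle libraries. Xcr1 was also at 0 in unstressed libraries 1 and 3, and Clec9a in unstressed library 1. Zbtb46, of the same list, had 0, 20 and 226 counts in vehicle libraries, nearly all of the sum of vehicle library 3. Itgax was called lower in vehicle than in unstressed libraries (edgeR adjusted p = 0.0425), a call that held under 3 of 11 alternatives. It was 1 of 7 tested markers of this list, where 3.41% of all genes passed and 3.19% as lower. Beside the markers at 0, 14.7% of all genes that averaged 5 to 20 CPM in unstressed libraries had at most 1 count over the vehicle libraries. Border macrophage markers (8 genes) summed to 1654 to 2241 CPM in psilocybin, 1237 to 2903 CPM in MDMA, 1624 to 2631 CPM in vehicle and 865 to 1720.4 CPM in unstressed libraries, mainly from Apoe, with no member at 0 in all libraries of a group. Without Apoe the sums were 19.99 to 114 CPM in psilocybin, 79.2 to 152 CPM in MDMA, 11.3 to 284.5 CPM in vehicle and 30.9 to 126 CPM in unstressed libraries, and the groups overlapped. In vehicle library 1, where B cell markers other than Cd79b and Ebf1 were at 0 and the dendritic cell sum was 0.552 CPM, the class II sum was 1261 CPM, the highest of the vehicle group. That library also had the lowest sums of the 12 libraries for border macrophage markers without Apoe (11.3 CPM) and for classical monocyte markers (51.6 CPM). The part of these markers in the class II levels was not tested.

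**Figure D5:**
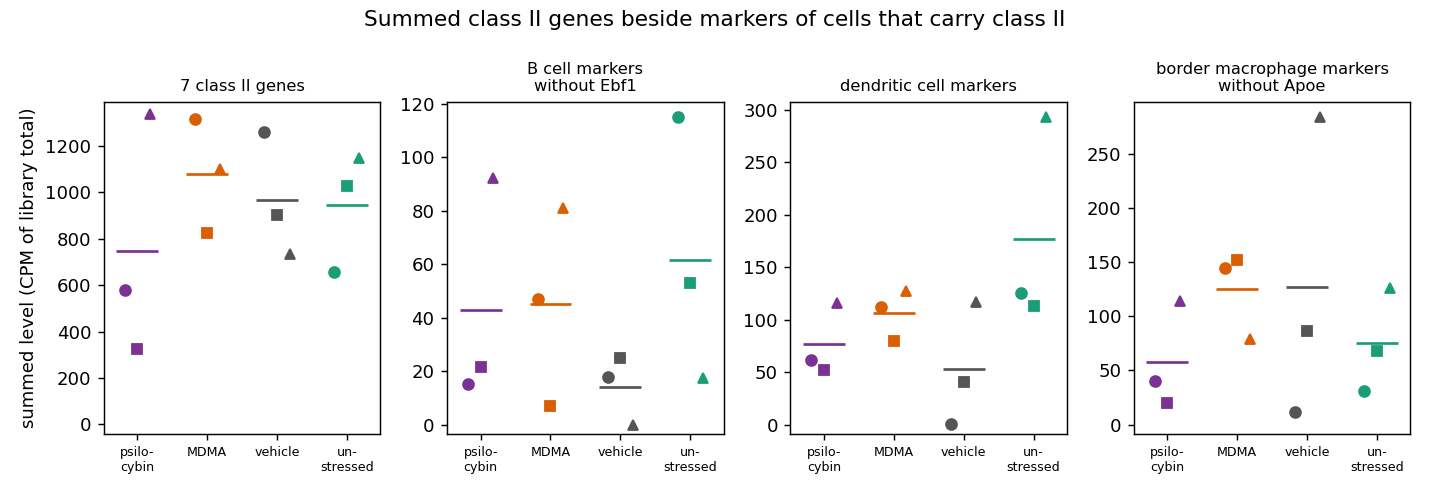
Summed levels (vertical axes, CPM of the library total, each panel with its own scale) of the 7 class II genes and of markers of B cells without Ebf1, dendritic cells, and border macrophages without Apoe, by group, with one symbol per replicate and a line at the mean. Vehicle libraries have class II sums of 733 to 1261 CPM beside B cell sums of 0 to 24.8 CPM, dendritic cell sums of 0.552 to 117 CPM and border macrophage sums without Apoe of 11.3 to 284.5 CPM.

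The members did not all vary together. Over the 12 libraries, H2-Ab1 and Cd74 had a Pearson correlation of log2 CPM of 0.88 and H2-Aa and Cd74 of 0.87, whereas H2-Ab1 had -0.03 with Ciita and -0.16 with H2-DMa. The same pairs gave 0.89, 0.89, -0.27 and -0.16 over the 9 stressed libraries, which share 1 annotation. For H2-DMa the measure mattered. By rank (Spearman, 12 libraries) it had 0.14 with H2-Ab1 and -0.07 with H2-DMb1. Its rank correlations were 0.69 with Cd74, 0.71 with H2-Aa and 0.78 with H2-Eb1 (Pearson 0.27, 0.46 and 0.16). These values describe libraries that share depth and cell make-up and carry no test. With the members left out, the 5 genes most like H2-Ab1 in this measure, among 12170 genes with a mean of at least 5 CPM, were Cd209f, a C-type lectin gene (0.82), Fcgrt, which encodes the neonatal Fc receptor (0.81), Tmem204 (0.79), Tfap2b, a transcription factor gene (0.79), and Rab8b, a small GTPase gene (0.78). Over the 9 stressed libraries, again with the members left out, the first 5 were Gadd45b, Cd53, Sp100, Cd48 and Pla2g4a. The 5 genes of the 12 libraries ranked 7 (Fcgrt), 10 (Cd209f), 11 (Rab8b), 14 (Tmem204) and 25 (Tfap2b) there. Their correlations over the 9 libraries were 0.78 to 0.84, among 12389 genes.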

How the data were processed

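The members and lists were chosen with earlier results of these data known. The authors deposited read counts per gene as whole numbers. Per the submitters' processing notes, STAR 2.7.5c, featureCounts 2.0.1 and the mm10 build were among the tools used. featureCounts ran on the unstressed libraries over RefSeq exons with no strand or paired-end option, per the file headers. For the stressed libraries, the annotation release and counting command are not stated in the sources used here. The Length column deposited in the unstressed files gave exonic bases. Of 55401 Ensembl identifiers, 55141 had a symbol in GENCODE vM21 (GRCm38). The 2 annotations were joined through a common symbol at one locus (26665 genes) or, failing that, through shared exonic bases with a Jaccard index of 0.5 or more (909 genes), which held 94.8% to 99.09% of each library's counts. In the table of the whole series, 3 columns of no sample used here were left out, and 9 were identical to the sample files.

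Counts were filtered with filterByExpr, scaled by edgeR's TMM factors and tested with edgeR 4.0.16 (R 4.3.3) quasi-likelihood tests over all 12 libraries without a replicate block, with Benjamini-Hochberg adjustment over all 13943 genes at 0.05. DESeq2 1.42.0 was an alternative. Levels are CPM of library totals unless called scaled. Exact (Clopper-Pearson) 95% intervals and floors of 3 counts cover counting error only, since no molecular identifiers are named in the labels. Correlations used log2 CPM with a prior count of 2. The genes named were all 7 members, pathway genes past the threshold, the other class II genes, marker genes at 0 (of which 1 is not reported here), and the 5 genes most correlated with H2-Ab1. Ifi30, Nfya, Nfyb, Rfx5, Ifng, Ly6c2, Ccr2, Cd79b, Ebf1, Apoe, Zbtb46 and the 5 genes of the stressed libraries were added after their values were seen, as were the sums without Ebf1 or Apoe and the share of genes with at most 1 count. Deviations of vehicle and psilocybin libraries of the same number correlated at 0.112, 0.213 and 0.115 across genes. Over all pairs of groups such values ran from -0.109 (MDMA and vehicle, number 2) to 0.318 (psilocybin and unstressed, number 2). The labels name no pairs, and the main tests used none. A replicate block, which takes equal numbers as pairs, was run as an alternative only. The fitting step was tested on simulated counts.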

Additional observations from a re-analysis of the deposited data

How the results depend on the processing

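The call of Ciita as lower in vehicle than in unstressed libraries was the result that depended most on the processing. Of 11 alternatives that gave it a value, 2 kept it past the threshold, DESeq2's Wald test (adjusted p = 0.00392) and edgeR without vehicle library 2 (0.0179), and all kept its direction. The number of members called in this comparison was 1 in the main test and 0 with DESeq2's size factors, with no filter (Ciita adjusted p = 0.0794), with only the 6 libraries compared (Ciita then failed the filter), with the replicate block (0.115), and without vehicle libraries 1 and 3 (0.153, the lone vehicle library being assumed to vary like the others). Leaving out 1 library gave 0 to 1. In MDMA against vehicle the number was 0 and became 1 with DESeq2's Wald test, and 0 to 1 leaving out 1 library. The joint test over 4 groups gave 1 with DESeq2's likelihood ratio test, an alternative chosen after seeing the data. The other comparisons stayed at 0 under every alternative run, among them the 3 without any vehicle library, also chosen after seeing the data. The cause of these changes was not tested.

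Some differences that passed no threshold changed sign, among them those of H2-DMb1 against vehicle (-1.13 for psilocybin and -1.02 for MDMA). In psilocybin against vehicle, H2-Eb1 was -0.14 with DESeq2's size factors, -0.15 with DESeq2 and -0.0042 with the 6 libraries compared. H2-Aa in MDMA against vehicle was -0.0419 with DESeq2's size factors, -0.0422 with DESeq2 and -0.0098 with the replicate block. Without vehicle libraries 1 and 3, vehicle against unstressed gave -0.31 for Cd74, -0.15 for H2-Ab1 and -0.53 for H2-DMb1. MDMA against vehicle then gave 0.41 for Cd74, -0.0346 for H2-Aa, 0.18 for H2-Ab1 and 0.20 for H2-DMb1, and psilocybin against vehicle 0.0757 for H2-DMb1. Leaving out 1 library, vehicle against unstressed ran from -0.22 to 0.32 for Cd74, from -0.0204 to 0.66 for H2-Aa and from -1.60 to 0.0916 for H2-DMa. Psilocybin against vehicle ran from -0.44 to 0.37 for H2-Eb1 and from -0.0609 to 1.62 for H2-DMa. MDMA against vehicle ran from -0.22 to 0.29 for Cd74 and from -0.19 to 0.37 for H2-Aa, and psilocybin against MDMA from -0.41 to 0.0935 for H2-DMb1. Per kilobase, the Cd74 share was 68.8% in psilocybin, 68.4% in MDMA, 66.2% in vehicle and 58.7% in unstressed libraries, lowest in the unstressed group, whereas in counts it was highest there (61.2%). The exon lengths behind the shares per kilobase differ between stressed and unstressed libraries, so these shares cannot be compared between them. The replicate block changed no call of a member other than Ciita, and ended those of Jak2 (adjusted p = 0.0982) and Itgax (0.0991). With only the 6 libraries compared, Jak2 had an adjusted p of 0.473. By number, 9 of 12 libraries correlated best with a library of their own number. Only genes with nearly the same exons could not be used, since no member is among them. Of 523 alternative values, 454 stayed the same as the main result. For a difference this meant the same direction and side of the threshold. For a number of members called it meant an unchanged number, and for summed levels and shares a mean within 1 SD. Leaving out 1 of 3 libraries cannot move a mean by 1 SD. Those values for summed levels and shares could therefore only stay the same, and show nothing about stability. Depth limits the Ciita share in vehicle library 2, which held 731 class II counts.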
